A study of Mus musculus with 10 samples.

Results

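Genes that copy DNA and supply its building blocks were followed in RAW264.7 cells, an established mouse macrophage line that divides in culture, before and during activation by lipopolysaccharide (LPS), a bacterial cell-wall product sensed by macrophages. The set held 45 genes of the 43432 in the count table. It was chosen by symbol from known roles in DNA replication and nucleotide supply, with earlier results of these data known, and each symbol matched 1 gene identifier. All 45 genes passed the low-count filter, which kept 14172 genes in all. There were 5 conditions with 2 libraries each: vehicle alone (DMSO, 0.5%); the same vehicle plus 1 µg/mL of LPS (DMSO + LPS); and compound **1** (7(E)-9-keto-hexadec-7-enoic fatty acid) at 32, 10 or 3.2 µM plus 1 µg/mL of LPS. Cells were plated at 250000 per well, **1** or vehicle was given 1 h before LPS, and RNA was taken after 12 h. No condition had **1** without LPS. All libraries came from 1 cell line. The p-values rest on the spread between libraries of the same condition, estimated over all 5 conditions and shared across genes.

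Before a cell divides, it loads a ring of 6 MCM proteins onto replication origins with the help of the origin recognition complex, Cdc6 and Cdt1. The ring is switched on as a helicase by Cdc45 and the GINS complex, the exposed single strands are covered by RPA, and primase with DNA polymerase alpha lays down primers that other polymerases extend on the sliding clamp Pcna. Ribonucleotide reductase, thymidylate synthase and thymidine kinase keep the deoxynucleotides coming. Transcription of many of these genes rises as cells enter S phase, under E2F transcription factors and with cyclin E. Macrophages that receive a strong activating signal are known to slow or stop their division.

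The libraries held 45966803 to 58976377 counts. Values below are CPM, counts scaled to library size after TMM normalisation, unless stated. Macrophage marker genes summed to between 355138 and 692557 counts in each library, and all 5 B cell markers were too low to be tested. The T cell markers summed to between 264 and 604 counts, with 306 and 264 in DMSO and 604 and 521 in DMSO + LPS. The 1 T cell marker that could be tested was higher with LPS (log2 fold change 1.15). All 8 genes listed as LPS responders rose in DMSO + LPS. Replicate 1 of the 10 µM condition held 2890 counts of 10 epithelial and fibroblast marker genes and replicate 1 of the 3.2 µM condition held 413, against 7 to 15 in each of the other 8 libraries. Ribosomal RNA features took 2.59% of counts in replicate 2 of the 32 µM condition and 0.0696% to 0.232% in the other libraries. The part of these differences in the results was not tested, and calls among the 45 genes that were lost without one of these libraries are named below.

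In resting cells (DMSO), the 45 genes together made up 3040 and 3054 CPM in the 2 libraries. In DMSO + LPS the sums were 1524 and 1548 CPM. With 3.2 µM of **1** they were 1548 and 1522, with 10 µM 1529 and 1502, and with 32 µM 1438 and 1418. The 2 DMSO libraries therefore lay far above all 8 LPS libraries, and the 2 libraries at 32 µM lay lowest. In these bulk samples, fewer replicating cells and less RNA per cell cannot be told apart.

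Levels of different genes were compared per length, as CPM divided by the exon length in kilobases (RPKM). In DMSO, the sliding clamp Pcna was the most abundant of the set, with a mean of 126 RPKM. It was followed by the helicase subunit Mcm5 at 47.8, the ribonucleotide reductase subunit Rrm2 at 42.3 and Mcm3 at 41.7 RPKM. The lowest means belonged to Fen1, which trims the flaps of Okazaki fragments, at 0.483 RPKM, and to the origin recognition subunit Orc1 at 2.14 RPKM. The Fen1 value is uncertain, because 84.2% of its exon bases are also exon of genes on the opposite strand. In DMSO + LPS, Pcna stood at 104 RPKM, and the next gene, Mcm5, at 26.3 RPKM.

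LPS lowered nearly the whole replication set. Of the 45 genes, 42 were lower in DMSO + LPS than in DMSO at an adjusted p below 0.05 (edgeR quasi-likelihood test, Benjamini-Hochberg adjustment over all genes tested) and 0 were higher. At an unadjusted p below 0.05, 1 was higher (Pola2), against 27.7% of all genes. Over all genes tested, 25.8% were lower and 25.2% higher. In 43 of the 45, both DMSO + LPS libraries lay below both DMSO libraries, as they did in 38.7% of all genes. At a change of at least 1.5-fold as well, 39 of the 45 were lower, against 13.6% of all genes. The median log2 fold change of the set was -1.20, that is 2.30-fold lower, while the median of all genes was 0.00. The genes ranged from -2.52 for Tk1 to 0.17 for Fen1. With 2 libraries a condition, an exact permutation test of a single gene cannot go below a p of 0.333, so calls rest on the spread shared across genes and conditions.

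**Figure D1:**
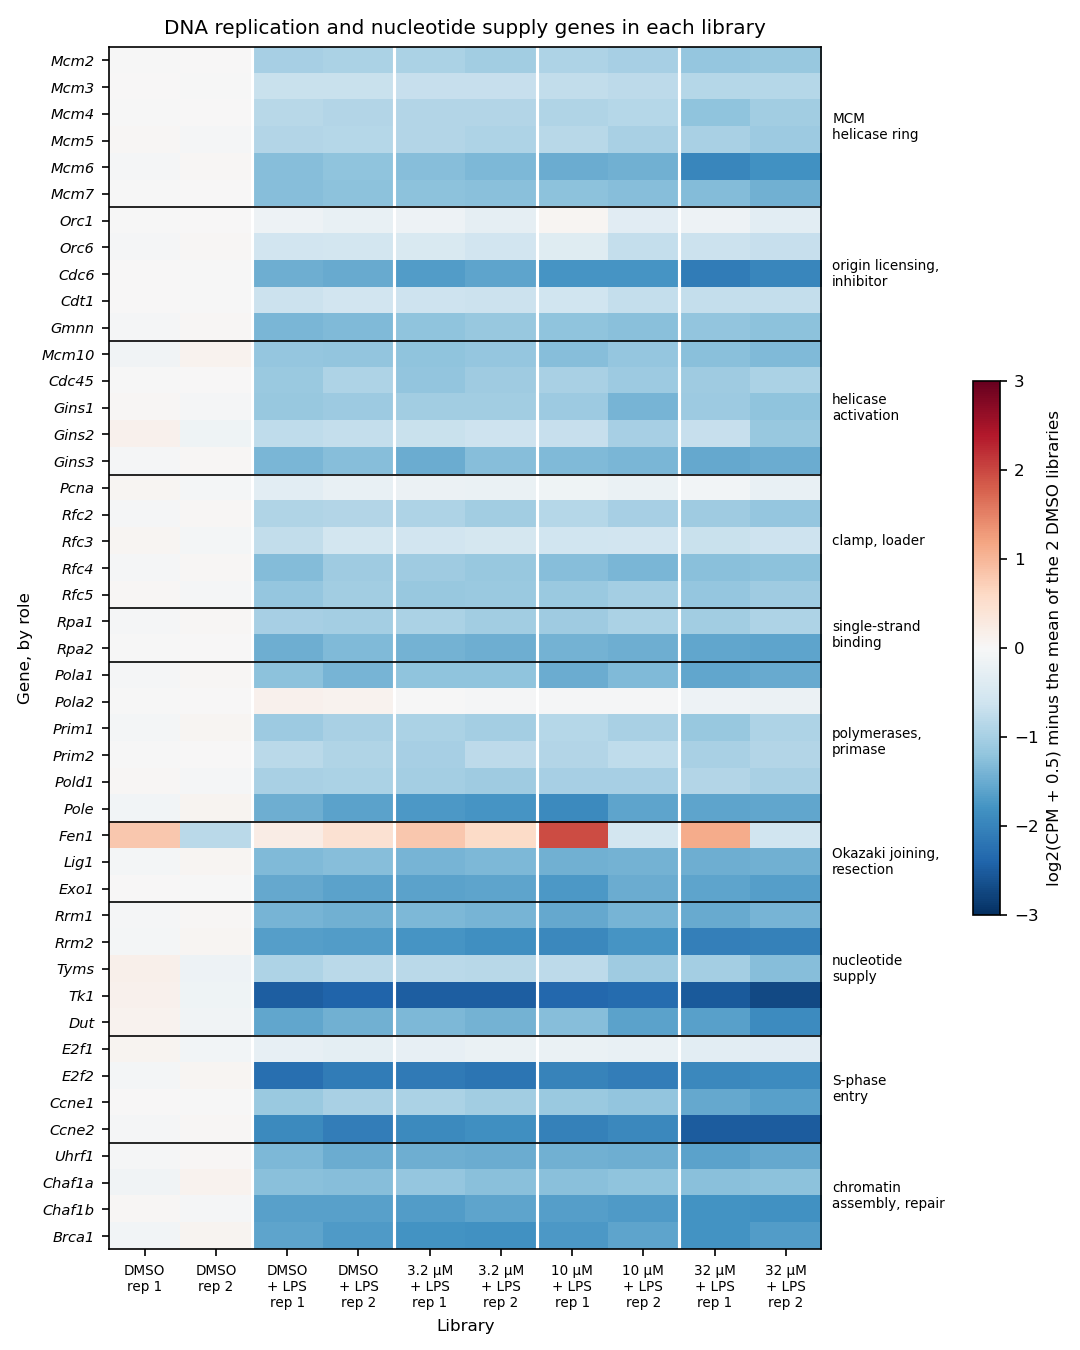
Level of each of the 45 genes (rows, grouped by role) in each of the 10 libraries (columns), as log2(CPM + 0.5) minus the mean of the 2 DMSO libraries; blue is lower and red higher. The 8 LPS libraries are blue for nearly every gene, Pola2, Orc1, E2f1 and Pcna stay pale, and Fen1 differs between replicates. Mcm6, Cdc6 and Ccne2 are among the genes that, within their own rows, are darkest at 32 µM.

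The 6 subunits of the MCM helicase ring all fell with LPS, by 0.67 (Mcm3) to 1.27 (Mcm7) on the log2 scale. Mcm6 was at 153 and 158 CPM without LPS and at 64.3 and 67.2 CPM with it. The log2 fold change was -1.24 (95% interval -1.38 to -1.10; edgeR adjusted p = 1.0e-06). Mcm7 went from 112 and 114 CPM to 45.98 and 47.4 CPM, and Mcm5 from 196 and 186 to 104 and 106 CPM. For each of these subunits both DMSO + LPS libraries lay below both DMSO libraries, as they did in 38.7% of all genes. The ring was not lowered evenly: Mcm6 made up 16.2% and 16.9% of the summed RPKM of the 6 subunits in DMSO and 13.1% and 13.6% in DMSO + LPS.

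The promoters of replication genes are known for sites of the E2F family, so the 250 bases before and 50 bases after the RefSeq start of each gene were searched for the E2F-type letters TTTCCCGC, TTTCGCGC, TTTGCCGC and TTTGGCGC on both strands. Of the 36 genes of the set with a RefSeq window, 14 held at least 1 match (38.9%), against 704 of all 27025 genes with a window (2.60%). The CCAAT letters, the core of the NF-Y site, were in 22 of the 36 (61.1%) and in 41.1% of all genes. A match is a description of the letters, not a bound site. The 27025 genes were not limited to those that passed the low-count filter, as all genes of the set did. The shares among genes that passed it are not given here. The 160 bases before the start of Mcm5 (GRCm38.p6, chr8:75109349-75109508, plus strand) and Mcm6 (chr1:128359706-128359865, minus strand) are shown because both promoters hold overlapping matches, which are in capitals.
Mcm5: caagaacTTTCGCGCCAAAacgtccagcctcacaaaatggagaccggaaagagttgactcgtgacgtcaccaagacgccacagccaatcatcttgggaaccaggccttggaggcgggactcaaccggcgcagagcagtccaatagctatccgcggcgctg
Mcm6: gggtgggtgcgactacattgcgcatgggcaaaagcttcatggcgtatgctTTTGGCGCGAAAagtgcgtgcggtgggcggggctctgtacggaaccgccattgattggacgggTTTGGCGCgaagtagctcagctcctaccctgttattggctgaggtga
In Mcm5 a pair of overlapping matches on opposite strands begins at -153 and -149 from the start site. In Mcm6 a similar pair begins at -110 and -106, and a further match at -47. The median log2 fold change with LPS was -1.26 for the 14 genes with a match (range -2.26 to -0.20) and -1.09 for the 22 without one (range -2.52 to 0.17), and the difference was not tested.

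Origin licensing genes moved unequally. Cdc6, which loads the MCM ring and is made anew in each cycle, was at 27.4 and 27.0 CPM without LPS and at 9.54 and 9.16 CPM with it (DMSO + LPS), which gave a log2 fold change of -1.54 (edgeR adjusted p = 1.0e-06). Gmnn, or geminin, which blocks relicensing by holding Cdt1, fell from 50.7 and 52.6 CPM to 19.8 and 20.2 CPM. Cdt1, the most highly counted gene of this group, fell by 0.61 on the log2 scale, from 75.03 and 74.8 CPM to 48.1 and 49.96 CPM. The licensing factor and its inhibitor were thus both lower, the inhibitor by more. Orc6 was lower by 0.57 on the log2 scale (edgeR adjusted p = 0.0029). Orc1, the subunit whose level is known to vary through the cycle, was at 7.43 and 7.47 CPM without LPS and at 6.65 and 6.32 CPM with it. The log2 fold change of -0.20 (95% interval -0.52 to 0.13) did not pass the test (edgeR adjusted p = 0.28).

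All 5 genes that turn the loaded ring into a moving helicase fell. Gins3, a subunit of the GINS complex, was at 40.8 and 42.4 CPM without LPS and at 15.8 and 16.9 CPM with it. Mcm10, which helps start unwinding, was at 39.2 and 44.8 CPM without LPS and at 18.4 and 18.1 CPM with it. Cdc45 was 2.05-fold lower and Gins1 2.30-fold lower. Gins2 was 1.71-fold lower, and 67.3% of its exon bases are also exon of Gse1 on the opposite strand. The libraries were made with a directional kit, but the strand setting of the counting is not given in the sources used here, so reads of such a pair cannot be assigned to either gene with certainty.

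The sliding clamp and its loader fell by different amounts. Pcna, which tethers polymerases to DNA and also serves in repair, was at 314 and 290 CPM without LPS and at 243 and 256 CPM with it. The libraries of the 2 conditions did not overlap, but the log2 fold change was only -0.27 (95% interval -0.42 to -0.12; edgeR adjusted p = 0.0080), and it did not pass without DMSO replicate 1 (edgeR adjusted p = 0.051) or without DMSO + LPS replicate 1 (0.062). The clamp loader subunits Rfc2, Rfc3, Rfc4 and Rfc5 fell by between 0.65 (Rfc3) and 1.23 (Rfc4) on the log2 scale. The 2 larger subunits of RPA, which coats single-stranded DNA, were lower. Rpa1 went from 215 and 226 CPM to 111 and 109 CPM, and Rpa2 from 50.6 and 50.6 CPM to 18.2 and 19.8 CPM.

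Among polymerases, the 2 subunits of DNA polymerase alpha parted. Pola1, the catalytic subunit, was at 40.1 and 41.9 CPM without LPS and at 17.2 and 15.3 CPM with it (DMSO + LPS), which gave a log2 fold change of -1.33 (95% interval -1.52 to -1.15; edgeR adjusted p = 3.1e-06). Pola2, the regulatory subunit of the same enzyme, was at 36.4 and 37.2 CPM without LPS and at 40.2 and 39.8 CPM with it. The log2 fold change of 0.12 (95% interval 0.02 to 0.23) did not pass the test (edgeR adjusted p = 0.054), though it passed under 3 of the 19 alternative settings, and its sign turned to -0.08 when libraries were scaled by their totals alone. Per length, Pola1 made up 50.9% and 51.4% of the pair in DMSO. It made up 28.6% and 26.6% in DMSO + LPS, and between 27.2% and 31.2% in the 6 libraries with **1**. The near-even share in DMSO depends on the exon lengths used, which are the same for every library.

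The primase subunits that work with this pair, Prim1 and Prim2, were 2.07-fold and 1.84-fold lower with LPS. Pold1, the catalytic subunit of the lagging-strand polymerase, went from 68.2 and 64.5 CPM to 33.5 and 34.3 CPM. Pole, that of the leading strand, went from 25.5 and 28.2 CPM to 9.38 and 8.48 CPM. The 160 bases before the starts of Pola1 (GRCm38.p6, chrX:93632156-93632315, minus strand) and Pola2 (chr19:5964207-5964366, minus strand) are shown because of the different LPS responses of these partners.
Pola1: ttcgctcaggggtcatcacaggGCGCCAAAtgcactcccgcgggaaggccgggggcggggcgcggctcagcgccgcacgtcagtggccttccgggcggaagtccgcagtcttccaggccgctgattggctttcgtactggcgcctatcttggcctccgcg
Pola2: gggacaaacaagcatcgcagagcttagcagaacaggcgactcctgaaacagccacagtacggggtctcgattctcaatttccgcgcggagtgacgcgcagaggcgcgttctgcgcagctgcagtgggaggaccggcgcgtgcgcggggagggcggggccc
Capitals again mark the E2F-type letters. Pola1 holds 1 match, and Pola2 holds none in its window.

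Fen1 could not be read. Replicates 1 and 2 held 119 and 18 counts without LPS and 67 and 69 with it. Under **1** the counts were 93 and 82 (3.2 µM), 236 and 22 (10 µM) and 128 and 20 (32 µM), so the replicates differed by several-fold in DMSO and at 10 and 32 µM but lay close together in DMSO + LPS and at 3.2 µM. Of its exon bases, 84.2% are also exon of Tmem258 or Gm10143 on the opposite strand. Lig1, the ligase that seals Okazaki fragments, went from 79.6 and 85.1 CPM in DMSO to 32.4 and 33.6 CPM in DMSO + LPS, which is 2.49-fold lower (edgeR adjusted p = 3.7e-07). The exonuclease Exo1 was 3.10-fold lower.

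All 5 nucleotide supply genes of the set fell. Tk1, the thymidine kinase of the salvage route, was at 49.9 and 42.2 CPM without LPS and at 7.84 and 8.28 CPM with it. The log2 fold change of -2.52 (95% interval -2.75 to -2.28; edgeR adjusted p = 3.9e-07), or 5.72-fold, was the largest of the 45. The 2 subunits of ribonucleotide reductase, which makes deoxynucleotides from ribonucleotides, also fell. Rrm1 was at 183 and 192 CPM in DMSO and at 70.9 and 68.5 CPM in DMSO + LPS, and Rrm2 at 113 and 122 CPM against 37.0 and 36.1 CPM. Dut, which keeps uracil out of DNA by destroying dUTP, was 2.88-fold lower and the thymidylate synthase gene Tyms 1.85-fold lower. For all 5 genes both DMSO + LPS libraries lay below both DMSO libraries, as they did in 38.7% of all genes.

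The genes of S-phase entry showed the widest spread. E2f2 was at 32.0 and 34.6 CPM without LPS and at 6.51 and 7.39 CPM with it (DMSO + LPS), which gave a log2 fold change of -2.26 (95% interval -2.45 to -2.07; edgeR adjusted p = 2.3e-07). E2f1, another activator of the same family, was at 43.9 and 38.8 CPM without LPS and at 34.5 and 33.3 CPM with it (DMSO + LPS), which gave a log2 fold change of -0.29 (95% interval -0.44 to -0.14). The intervals of the 2 E2F genes were far apart. E2f1 did not pass without DMSO + LPS replicate 2 (edgeR adjusted p = 0.052). Of the cyclins E, partners of the kinase Cdk2, Ccne2 went from 26.2 and 27.8 CPM to 6.83 and 6.07 CPM and Ccne1 from 39.6 and 38.6 CPM to 17.7 and 19.7 CPM. Ccne2 was 4.18-fold and Ccne1 2.09-fold lower.

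Of the genes that rebuild chromatin behind the fork, Uhrf1, which guides the copying of DNA methylation, went from 102 and 108 CPM to 40.9 and 37.4 CPM, a log2 fold change of -1.42 (edgeR adjusted p = 4.4e-07). The chromatin assembly factor subunits Chaf1a and Chaf1b were 2.42-fold and 3.21-fold lower, and 52.5% of the exon bases of Chaf1a are also exon of Ubxn6 on the opposite strand. Brca1, which serves in repair of broken forks, was 3.19-fold lower. Leaving out every gene with any exon overlap, 30 of 31 genes were called lower with LPS, against 25.8% of all genes tested. The median log2 fold change of the 31 was -1.20.

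**Figure D2:**
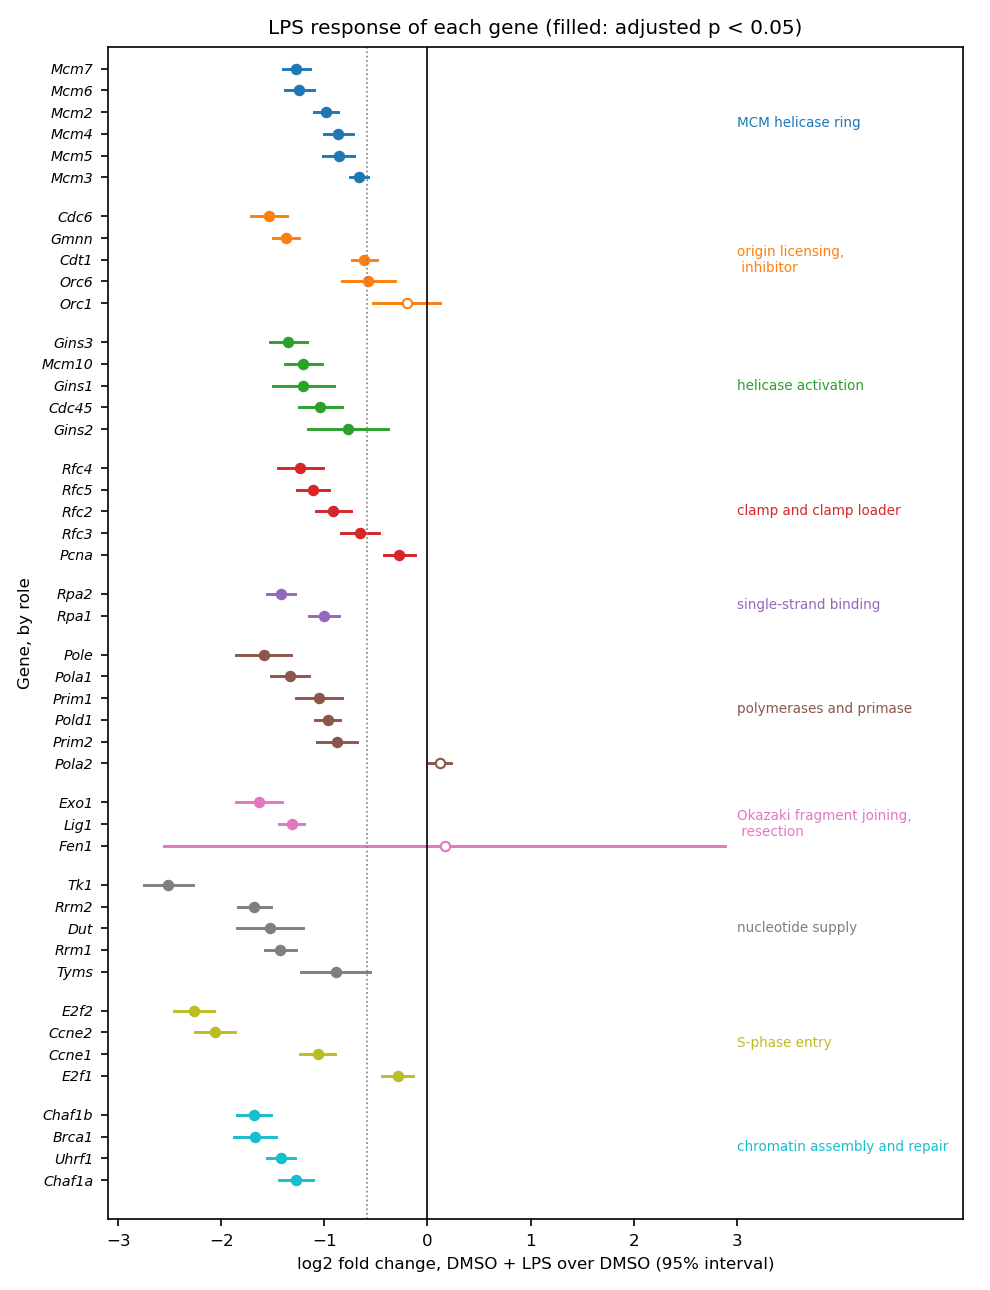
Log2 fold change of each gene in DMSO + LPS over DMSO (points) with its 95% interval (lines), grouped by role; filled points passed the test and the dotted line marks 1.5-fold lower. Of the 45 points, 42 are filled and left of 0; Orc1, Pola2 and Fen1 are open, and the interval of Fen1 runs from -2.55 to 2.89.

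With 32 µM of **1** before LPS, 8 of the 45 genes were lower than in DMSO + LPS (edgeR adjusted p below 0.05) and 0 were higher. At an unadjusted p below 0.05, 17 were lower and 2 higher (E2f2 and Gmnn), against 11.4% and 10.8% of all genes. The 8 were Mcm6, Mcm3 and Mcm4 of the helicase ring, the ring loader Cdc6, the cyclins Ccne1 and Ccne2, the reductase subunit Rrm2, and Pola2. Over all genes tested, 5.72% were lower and 4.06% higher. Mcm6 alone passed 1.5-fold as well, against 2.91% of all genes. The median log2 fold change of the set was -0.12 (all genes 0.01), and 37 of the 45 values were below 0, against 47.9% of all genes. In 25 genes both libraries at 32 µM lay below both of DMSO + LPS and in 3 both lay above, against 24.3% and 25.7% of all genes.

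Mcm6 was at 64.3 and 67.2 CPM in DMSO + LPS. With **1** Mcm6 was at 64.3 and 61.2 CPM (3.2 µM), 54.9 and 56.7 CPM (10 µM) and 39.8 and 44.0 CPM (32 µM). The libraries at 32 µM lay below all others. The log2 fold change at 32 µM was -0.65 (95% interval -0.79 to -0.51; edgeR adjusted p = 3.4e-04), and it passed under all 19 alternative settings, with adjusted p-values from 3.2e-16 to 0.0065. Its share of the summed RPKM of the ring was 13.1% and 13.6% with vehicle and LPS. It was 13.2% and 12.8% (3.2 µM), 11.5% and 12.2% (10 µM) and 9.58% and 10.6% (32 µM) with **1**. The other 5 subunits changed less at 32 µM, with log2 fold changes from -0.26 (Mcm4) to -0.12 (Mcm7). Of these, Mcm4 (edgeR adjusted p = 0.032) and Mcm3 (-0.20; edgeR adjusted p = 0.014) passed the test, and Mcm2, Mcm5 and Mcm7 did not. Both calls were weak: Mcm3 passed under 13 of the 19 alternatives and Mcm4 under 12, with adjusted p-values up to 0.10 and 0.22.

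Cdc6 was at 9.54 and 9.16 CPM in DMSO + LPS. With **1** it was at 8.22 and 8.76 CPM (3.2 µM), 7.67 and 7.61 CPM (10 µM) and 5.97 and 6.68 CPM (32 µM). Its libraries at 32 µM were the lowest, and the log2 fold change there was -0.56 (95% interval -0.74 to -0.39; edgeR adjusted p = 0.0026). Ccne1 was at 17.7 and 19.7 CPM in DMSO + LPS. With **1** it was at 19.96 and 18.6 CPM (3.2 µM), 17.8 and 17.04 CPM (10 µM) and 13.2 and 12.2 CPM (32 µM). For this cyclin only the libraries at 32 µM stood clear of DMSO + LPS, with a log2 fold change of -0.56 (edgeR adjusted p = 0.0025). Ccne2 was at 6.83 and 6.07 CPM in DMSO + LPS. With **1** it was at 6.77 and 7.15 CPM (3.2 µM), 6.25 and 6.64 CPM (10 µM) and 4.37 and 4.34 CPM (32 µM). It had a log2 fold change of -0.57 (edgeR adjusted p = 0.0046). Cdc6 and Ccne1 passed under all 19 alternatives and Ccne2 under 18. Of the exon bases of Ccne2, 17.4% are also exon of Ints8 on the opposite strand. Ccne2 is the 1 gene called at 32 µM with any such overlap.

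Rrm2 was at 37.0 and 36.1 CPM in DMSO + LPS. With **1** it was at 34.2 and 32.4 CPM (3.2 µM), 30.4 and 34.1 CPM (10 µM) and 27.9 and 28.3 CPM (32 µM). The log2 fold change at 32 µM was -0.38 (95% interval -0.54 to -0.22; edgeR adjusted p = 0.011). Its partner Rrm1 was at 70.9 and 68.5 CPM in DMSO + LPS and at 65.7 and 71.5 CPM at 32 µM, so its groups overlapped (log2 fold change -0.02). The call of Rrm2 passed under 15 of the 19 alternatives. Pola2, the subunit that had not fallen with LPS, was at 40.2 and 39.8 CPM in DMSO + LPS. With **1** it was at 36.7 and 36.0 CPM (3.2 µM), 35.9 and 35.8 CPM (10 µM) and 33.3 and 32.4 CPM (32 µM). All 6 libraries with **1** lay below both DMSO + LPS libraries, and at 32 µM the log2 fold change was -0.29 (95% interval -0.39 to -0.18; edgeR adjusted p = 0.0056), and it passed under 16 of the 19 alternatives. Pola1 had a similar log2 fold change of -0.24 that did not pass (edgeR adjusted p = 0.11).

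**Figure D3:**
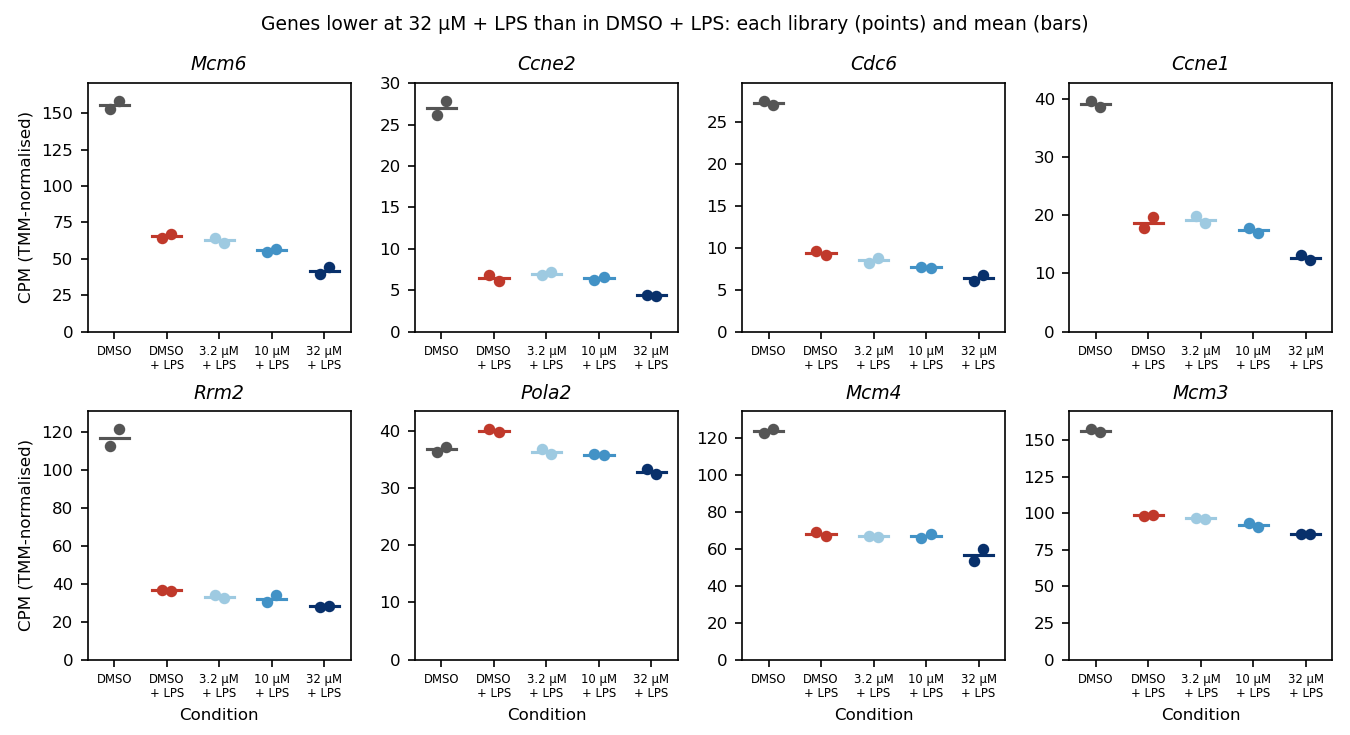
CPM of the 8 genes that were lower at 32 µM + LPS than in DMSO + LPS, in each library (points) and as the condition mean (short bars), across the 5 conditions; each panel starts at 0. DMSO is highest in 7 panels, Pola2 is the exception, and the 32 µM libraries are the lowest in every panel.

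Some genes of the set had higher values at 32 µM than in DMSO + LPS, but 0 of the 45 were called higher. Pcna was at 284 and 259 CPM, against 243 and 256 CPM in DMSO + LPS (log2 fold change 0.12; edgeR adjusted p = 0.34). E2f2, among the genes that fell most with LPS, was at 8.40 and 8.65 CPM against 6.51 and 7.39 CPM, a log2 fold change of 0.30 (95% interval 0.10 to 0.49; edgeR adjusted p = 0.069). Gmnn stood at 22.4 and 21.7 CPM against 19.8 and 20.2 CPM (log2 fold change 0.15; edgeR adjusted p = 0.15). In these 3 of the 45 genes both 32 µM libraries lay above both DMSO + LPS libraries, as they did in 25.7% of all genes. Tk1, at 7.58 and 6.57 CPM against 7.84 and 8.28 CPM, had a log2 fold change of -0.19 and was not among those called.

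The call of 8 genes is sensitive to single libraries. It came to 4 without DMSO + LPS replicate 1, 5 without DMSO + LPS replicate 2, 5 without 32 µM replicate 1 and 5 without 32 µM replicate 2, the library with the most ribosomal RNA. The genes lost were Mcm3, Mcm4, Rrm2 and Pola2 without DMSO + LPS replicate 1, Mcm3, Mcm4 and Rrm2 without DMSO + LPS replicate 2 or 32 µM replicate 1, and Mcm3, Rrm2 and Pola2 without 32 µM replicate 2. Without that last library the log2 fold changes of these 3 genes were -0.20, -0.39 and -0.27, beside -0.20, -0.38 and -0.29 with it. Mcm4 alone was lost, leaving 7, without DMSO replicate 1 or either 3.2 µM replicate, of which replicate 1 is a library with epithelial transcripts (edgeR adjusted p = 0.081 without it). With a score for short transcripts added to the fit after seeing the data, the count rose to 19, of which 17 were lower and 2 higher (Pcna and E2f2). The share of all genes that passed in that fit is not given here. Genes called at 1.5-fold numbered 2 without DMSO + LPS replicate 1, 3 without DMSO + LPS replicate 2 and 2 without 32 µM replicate 2.

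At 10 µM, 0 of the 45 genes passed the test by edgeR in either direction. Over all genes tested 1.7% were lower and 0.967% higher. At an unadjusted p below 0.05, 6 genes were lower and 0 higher, against 6.24% and 5.81% of all genes, and DESeq2 called 1 gene, Mcm6. The 6 were Mcm6, Cdc6, Pola2, Rrm2, Mcm3 and Lig1. Mcm6 had a log2 fold change of -0.24 (95% interval -0.38 to -0.10; edgeR adjusted p = 0.11) and Cdc6 of -0.29 (95% interval -0.47 to -0.11; edgeR adjusted p = 0.12). The median of the set was -0.03. Leaving out Fen1, the 95% intervals of the 44 genes lay between -0.50 and 0.39. Each interval is for 1 gene, without adjustment for their number, so this range is not a joint bound.

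At 3.2 µM, 0 of the 45 genes and 0 of all genes passed the edgeR test, and DESeq2 called 0 of the 45. At an unadjusted p below 0.05, 1 gene was lower (Pola2, log2 fold change -0.14) and 1 higher (Gmnn, 0.18), against 2.46% and 1.77% of all genes. The median of the set was -0.02, and without Fen1 the 95% intervals ran from -0.49 to 0.49.

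The 2 higher doses were compared directly, and the comparison shares the 32 µM libraries with the one above. At 32 µM 3 genes were lower than at 10 µM and 0 higher, against 1.95% and 0.804% of all genes tested. Mcm6 differed by a log2 fold change of -0.41 (95% interval -0.55 to -0.27; edgeR adjusted p = 0.011), Ccne1 by -0.45 (edgeR adjusted p = 0.019) and Ccne2 by -0.57 (edgeR adjusted p = 0.013). By edgeR 0 of the 45 passed 1.5-fold as well, against 1.15% of all genes lower. The median of the set was -0.12. In a fit of the 4 libraries compared, all 3 calls were lost (edgeR adjusted p = 0.28 for Mcm6, 0.31 for Ccne1 and 0.35 for Ccne2). The call of 3 genes came to 2 without 10 µM replicate 1, a library with epithelial transcripts (Ccne1 was lost), to 1 without 10 µM replicate 2 or 32 µM replicate 2 (Mcm6 was left), and to 0 without 32 µM replicate 1.

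Cells given 32 µM of **1** and LPS were also set against resting cells. Here 42 genes were lower and 0 higher, against 25.1% and 25.7% of all genes, and 40 were lower by at least 1.5-fold, against 13.3%. The median log2 fold change was -1.23, beside -1.20 for DMSO + LPS, and both comparisons share the DMSO libraries. Mcm6 stood 3.71-fold below DMSO, Cdc6 4.30-fold and Ccne2 6.20-fold. Tk1 remained the gene with the lowest value, at -2.70 on the log2 scale. Pola2 had a log2 fold change of -0.16 and was now among the genes called, whereas Pcna, at -0.15, was not (edgeR adjusted p = 0.082). Both stood near the threshold: Pola2 passed under 15 of the 19 alternatives, not without 32 µM replicate 2 (edgeR adjusted p = 0.090), and Pcna passed without DMSO replicate 2 (0.042) or 32 µM replicate 1 (0.041).

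Further genes of the same pathways, outside the 45, were read from lists. Of 39 other replication factors, 33 were lower and 2 higher with LPS, against 25.8% and 25.2% of all genes, with a median log2 fold change of -0.70. The largest falls were those of the checkpoint mediator Clspn (-2.10), the firing factor Ticrr (-1.94) and the histone chaperone Asf1b (-1.91), while the small polymerase subunits Pold4 (0.67) and Pole4 (0.46) rose. At 32 µM 1 of the 39 was lower than in DMSO + LPS, the fork protection gene Timeless (-0.82; edgeR adjusted p = 1.6e-04), and 1 higher, the helicase Recql4 (0.45; edgeR adjusted p = 0.045). Over all genes 5.72% were lower and 4.06% higher at 32 µM, and the median of this list was 0.01.

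Other nucleotide supply genes were mixed. Of 33, 15 were lower and 5 higher with LPS (all genes 25.8% and 25.2%), with a median log2 fold change of -0.21. Prps2, an enzyme of the common precursor PRPP, had the lowest value (-1.63). Those that rose were Cmpk2, an interferon-induced mitochondrial nucleotide kinase (3.93), Samhd1, which degrades dNTPs (0.91), the folate enzyme Mthfd2 (0.86), Impdh1 (0.75) and Adss (0.54), both of purine synthesis. At 32 µM 4 of the 33 were lower than in DMSO + LPS, among them Cmpk2 (-1.99), Samhd1 (-0.88) and the salvage kinase Dck (-0.74). Atic (0.20) and Ctps2 (0.19), of purine and CTP synthesis, were higher (all genes 5.72% lower and 4.06% higher).

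Genes of mitosis, which follows S phase, were also read. All 30 were lower with LPS, against 25.8% of all genes, with a median log2 fold change of -1.98 and the lowest values in Cenpf (-2.98), a kinetochore protein, and the spindle motor Kif11 (-2.83). At 32 µM 0 of the 30 were lower than in DMSO + LPS and 10 were higher, against 5.72% and 4.06% of all genes, with a median of 0.23 beside -0.12 for the 45 replication genes, and the difference between the lists was not tested. The 5 with the largest rises were Nusap1 (0.72) and Plk1 (0.66), which act in spindle assembly and mitotic entry, Cdc20 (0.65) and Ube2c (0.62) of the anaphase-promoting complex pathway, and the checkpoint kinase Ttk (0.43). Among G1 regulators, 24 of 25 could be tested, and 15 were lower and 4 higher with LPS, beside the same 25.8% and 25.2% of all genes. Of the 24, 11 were lower by at least 1.5-fold, against 13.6% of all genes, and the median log2 fold change was -0.52. The 4 that rose were Myc (5.35), Ccnd2 (2.53), Cdk6 (1.72) and the inhibitor Cdkn1a (0.59). At 32 µM cyclin D genes Ccnd1 (-0.78) and Ccnd3 (-0.31) and Cdkn1a (-0.24) were lower than in DMSO + LPS, and 0 were higher, beside the same 5.72% and 4.06%.

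**Figure D4:**
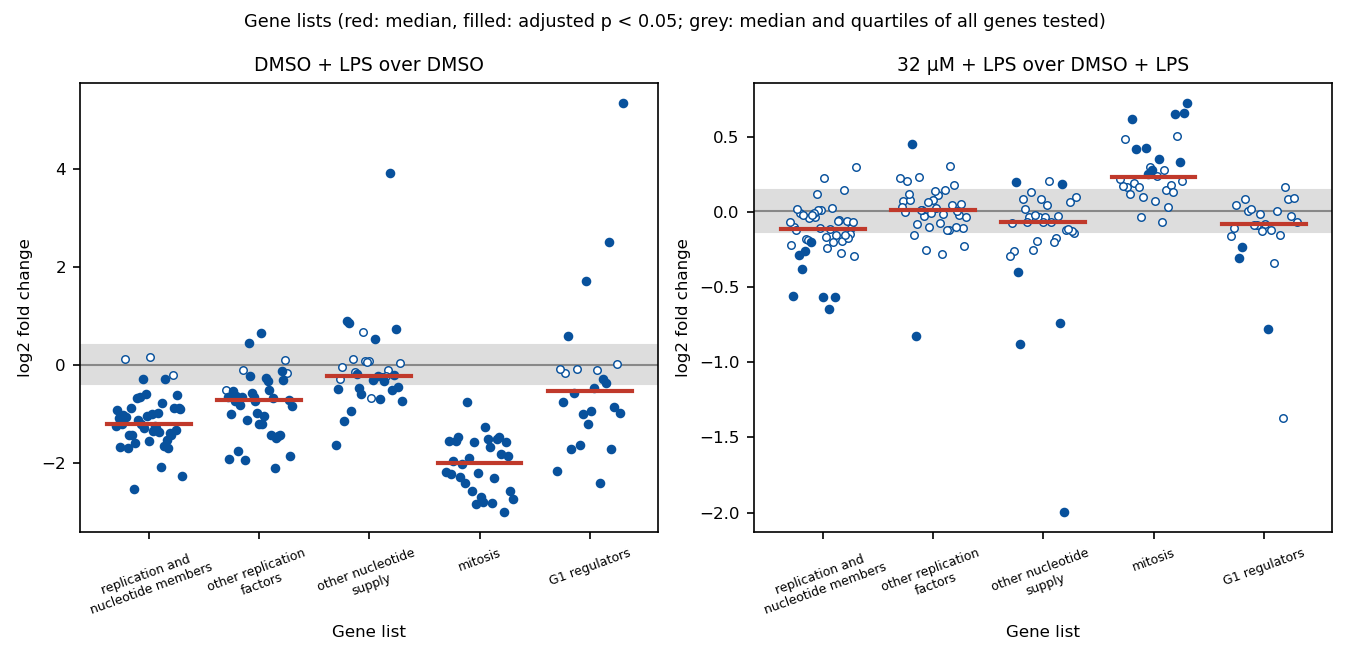
Log2 fold change of each gene (points) in 5 lists for DMSO + LPS over DMSO (left) and 32 µM + LPS over DMSO + LPS (right); red bars are list medians, filled points passed the test, and grey marks the median and quartiles of all genes tested. With LPS the medians of the replication set (-1.20) and of mitosis (-1.98) both lie below the grey band, while at 32 µM that of the replication set is -0.12 and that of mitosis 0.23.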

How the data were processed

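RNA-seq of 10 libraries, labelled as 2 biological replicates in each of 5 conditions, was deposited by the authors as a table of raw counts per Ensembl gene. The submitters' processing notes name Trimmomatic, FastQC, STAR, DESeq2 and mm10; the libraries were directional, and the counting tool, its strand setting and the annotation are not given in the sources used here. The number of value columns not assigned to a sample was 0. Workbooks of the authors' own fold changes and p-values were not used. Symbols, exon lengths and overlaps came from GENCODE M21, promoters from RefSeq (GRCm38.p6).

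Genes passing filterByExpr (minimum count 10) were fitted with edgeR 4.0.16 in R 4.3.3: TMM, quasi-likelihood, 1 mean per condition over all 10 libraries, Benjamini-Hochberg adjustment over all genes. A gene passed at an adjusted p below 0.05. RPKM used exon union lengths. The fit was tested on simulated data. Members and lists were chosen with earlier results of these data known. Named genes were all 45 members and, from each other list, up to 5 called in each direction by size. The values of 1 gene of these lists are not reported here. Alternatives were other scalings and filters, DESeq2 1.42.0, the likelihood ratio test, 4-library fits, a replicate block, omission of each library, and a short-transcript score.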

Additional observations from a re-analysis of the deposited data

How the results depend on the processing

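The LPS result kept its counts within 1.5 times under every alternative (41 to 45 of 45 past the test, 41 to 44 of them lower, and 38 to 41 lower by 1.5-fold). Scaling by library totals alone moved the median of all genes with LPS to -0.20 and that of the 45 to -1.41; it turned Pola2 to -0.085 and Fen1 to -0.039. Fen1 with LPS was also reversed with the short-transcript score (-0.844), without DMSO replicate 2 (-0.635) and without DMSO + LPS replicate 2 (-0.0048), with leave-one-out values from -0.635 to 2.04. At 32 µM against DMSO + LPS, the 8 genes past the test became 4 in a fit of the 4 libraries compared. With the short-transcript score, added after seeing the data, they became 19 (17 lower, 2 higher). The score was a per-library median over protein-coding genes with transcripts under 1000 nt, ribosomal protein genes left out. Each gene entered it as log2 CPM minus its mean over libraries. For fits with the score, the shares of all genes past the test are not given here. Counts without single libraries are given above. The 1 gene called at 1.5-fold became 2 with no count filter and 2 with the score, and leaving out libraries gave 1 to 3. At 10 µM the 0 past the test became 1 with DESeq2 and 5 with the score. For 32 against 10 µM, the 3 past the test became 0 in the 4-library fit and 7 with the score, and leaving out libraries gave 0 to 3; the 0 called at 1.5-fold became 1 with the score, and leaving out libraries gave 0 to 1. In the 4-library fits fewer samples set the spread; the cause of the other changes was not tested.

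The conditions share replicate numbers, and the labels do not say what a number marks. Over all genes, the deviations of same-numbered libraries correlated at 0.39 to 0.85 in the 6 pairs of conditions without DMSO + LPS and at -0.43 to -0.21 in the 4 pairs with it, so the numbers were not taken as a pairing over all conditions. With a replicate block, 42 of the 45 passed with LPS, 8 at 32 µM, 0 at 10 µM, 0 at 3.2 µM, 3 for 32 against 10 µM and 42 for 32 µM against DMSO, the same counts as without it. With 2 libraries a condition, the 95% intervals of the LPS changes other than that of Fen1 had a median half-width of 0.17 on the log2 scale.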
